A study of Mus musculus with 17 samples.

Results

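The 10 visceral endoderm genes below were followed in H3K27ac HiChIP of mouse embryoid bodies (EBs): the endocytic receptor genes Cubn, Amn and Lrp2 with their adaptor gene Dab2, the apolipoprotein genes Apoa1, Apob and Apoe, and the carrier protein genes Ttr, Afp and Rbp4. They were 10 of 22367 protein-coding genes in the annotation of the mm9 genome. Their loops were those with an anchor within 5 kb of an annotated transcription start site (TSS), 453 of 1211657 loops in all. An anchor is a chromatin fragment called by the authors, and a loop is a pair of anchors joined by at least 1 sequenced read pair. HiChIP with an antibody to H3K27ac, the histone acetylation found at active promoters and enhancers, sequences such contacts.

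All libraries came from EBs grown by the hanging drop method from R1 mouse embryonic stem cells, a single line, and treated with retinoic acid (RA) at 0.5 µM for 4 days. The 12 bulk libraries held unsorted cells. The 5 double positive libraries, labelled cluster2, held cells of the same stage sorted for the surface proteins EpCAM and CD38. No untreated sample was compared. The unsorted cells include double positive cells, so a share of cells and a level per cell cannot be told apart in any bulk value. Between 65148 and 241068 read pairs per bulk library and between 50508 and 118179 per double positive library lay in loops. The number of read pairs limits the precision of every value below, and molecules amplified by PCR are not independent. The labels do not tie replicates to separate cultures, so p-values measure the spread between these libraries.

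The visceral endoderm is the outer epithelium of the early mouse embryo and feeds it before the placenta works. Its cells take up maternal proteins through cubilin, which is carried to the surface by amnionless, and through megalin, the product of Lrp2. The adaptor that Dab2 encodes joins these receptors to clathrin coats. The same cells package lipids on apolipoproteins and secrete plasma proteins such as transthyretin, alpha-fetoprotein and retinol binding protein, as liver does later.

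The promoters of Cubn, Apoe, Apoa1 and Rbp4 are shown because these genes held the most read pairs of the 10 in double positive loops. Each runs 5′ to 3′ on the gene's strand, from 250 bases before the RefSeq start site to 30 bases after it. The sequences are from RefSeq (GRCm38.p6) and each matched mm9 exactly at 1 place. That place was chr2:13413474-13413753 (minus strand) for Cubn, chr7:20284508-20284787 (minus) for Apoe, chr9:46036463-46036742 (plus) for Apoa1 and chr19:38199272-38199551 (minus) for Rbp4. Capitals mark letters that match a searched motif. The start site of each of the 4 genes lay inside an anchor that both groups' loops used.
Cubn: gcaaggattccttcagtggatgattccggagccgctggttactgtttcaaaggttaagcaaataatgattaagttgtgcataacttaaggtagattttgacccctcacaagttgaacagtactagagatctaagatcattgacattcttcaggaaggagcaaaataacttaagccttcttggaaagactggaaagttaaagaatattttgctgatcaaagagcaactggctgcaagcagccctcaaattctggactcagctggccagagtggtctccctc
Apoe: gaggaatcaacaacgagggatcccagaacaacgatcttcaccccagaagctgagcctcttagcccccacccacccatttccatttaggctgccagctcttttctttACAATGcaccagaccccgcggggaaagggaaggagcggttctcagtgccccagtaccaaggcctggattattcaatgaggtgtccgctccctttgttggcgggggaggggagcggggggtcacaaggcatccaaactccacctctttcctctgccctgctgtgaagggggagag
Apoa1: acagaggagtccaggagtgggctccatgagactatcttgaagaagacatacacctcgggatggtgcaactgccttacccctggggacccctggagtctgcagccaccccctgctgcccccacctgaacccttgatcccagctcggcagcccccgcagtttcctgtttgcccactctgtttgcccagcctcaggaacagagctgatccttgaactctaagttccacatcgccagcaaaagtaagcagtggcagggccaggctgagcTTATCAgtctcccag
Rbp4: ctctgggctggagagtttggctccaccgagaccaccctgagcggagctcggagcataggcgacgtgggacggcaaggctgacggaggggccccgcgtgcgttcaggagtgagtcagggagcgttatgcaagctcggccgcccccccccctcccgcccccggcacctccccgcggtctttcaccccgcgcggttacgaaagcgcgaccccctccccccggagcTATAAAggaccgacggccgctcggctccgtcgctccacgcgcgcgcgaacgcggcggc

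The motifs were searched on both strands over 300 bases, from 250 before to 50 after the start site. They stood for factors active in endoderm and liver: GATA factors (AGATAA or TGATAA), FOXA (TGTTTAC or TATTTAC), HNF1 (GTTAAT), HNF4 (CAAAGT) and SOX (ACAATG), beside the TATA box (TATAAA). The RefSeq table held 13 promoters of 9 of the genes. Ttr had none there. The Apoe promoter shown holds ACAATG 144 bases before its start site, letters found in 10.5% of 18191 promoters. The Apoa1 promoter holds TGATAA on the opposite strand at base 16 after the start site, and a GATA motif was also found in a Dab2 promoter. GATA motifs were in 15.2% of all promoters. The Rbp4 promoter shown holds TATAAA 28 bases before its start site. That box was also found at Afp, Apob and another Apoe promoter, and in 12.1% of all promoters. FOXA letters lay at the other Rbp4 promoter and at an Apoe promoter (5.45% of all), HNF1 letters at Afp, Apoe and Dab2 (6.22%), and HNF4 letters at Dab2 and Lrp2 (13.5%). No searched letters were in the Cubn and Amn promoters. Matches to different motifs did not overlap, and a match describes letters only.

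Summed per gene, loops of Apoe, Rbp4 and Apoa1 were higher in the double positive libraries, those of Lrp2, Apob and Dab2 were lower (Lrp2 and Apob with no double positive read pair listed on anchors that no double positive loop used, Dab2 with the opposite sign on shared anchors and with library size alone), and those of Cubn, Amn and Ttr did not pass the test. Afp was too sparse to be tested. These calls come from edgeR's quasi-likelihood test over all 14115 genes with enough read pairs, at an adjusted p under 0.05. In that test 20.6% of the genes were called higher and 42.8% lower, so 3 higher and 3 lower calls among 9 tested genes lie near the background. Values are CPM, read pairs per 1000000 read pairs of the library's effective size, after TMM scaling. The median log2 fold change over all genes was -0.52 and that of the 9 genes was 0.62. With library size alone as the scaling, the median over all genes moved to 1.21 and Dab2 was at 0.27 (edgeR adjusted p = 0.61). Under it 6 of the 9 genes were higher, Cubn, Amn and Ttr among them. Of all 14115 genes 7800 were then higher and 3702 lower, so this count also lies near the background.

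**Figure D1:**
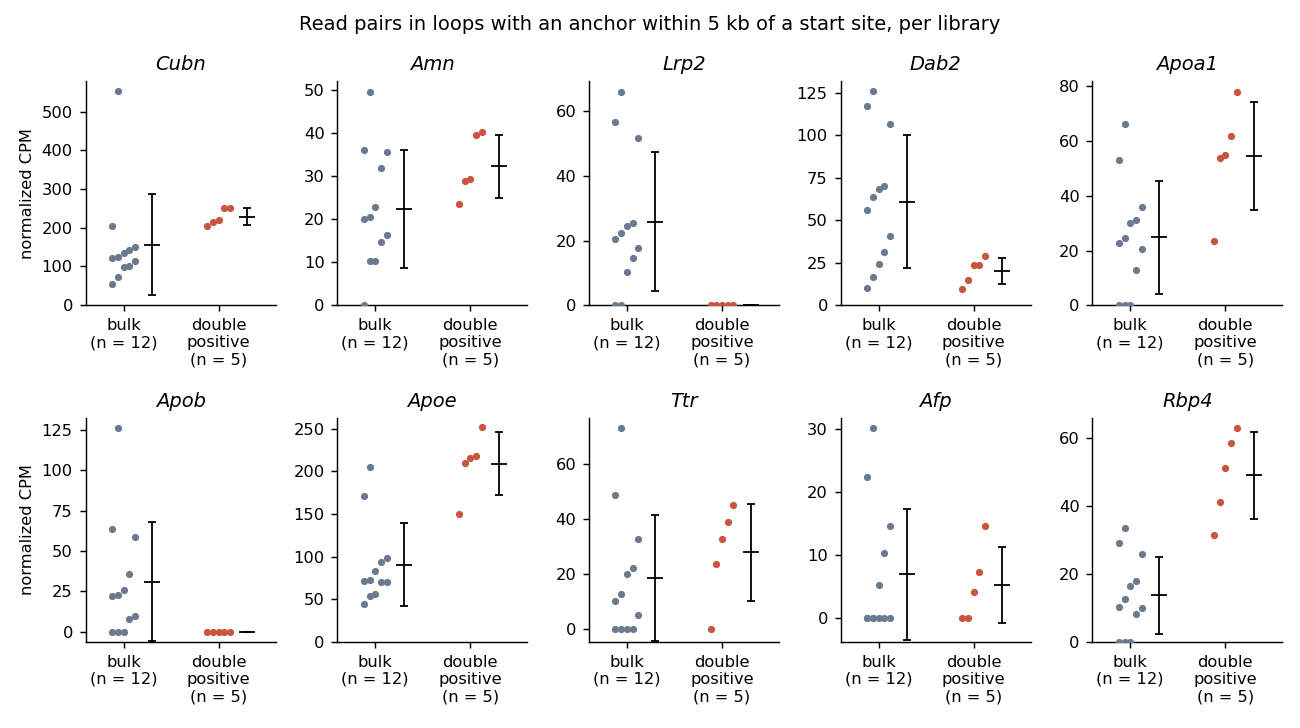
Read pairs in each gene's loops per library, as normalized CPM on a linear axis that differs between panels. Grey points are the 12 bulk and red points the 5 double positive libraries, and black marks give the mean ± SD. For Apoe 4 of the 5 double positive libraries lie above every bulk library, Lrp2 and Apob have no double positive read pair, and 1 bulk library stands far above the others at Cubn.

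The groups' anchor sets differ in size, and this bears on each of these totals. Of the 216081 joined anchors, 15074 were used in both groups, 200999 in bulk loops only and 8 in double positive loops only. Of the 27 anchors near the 10 genes' start sites, 10 were used by double positive loops. All double positive read pairs of the 10 genes lay on shared anchors, against at most 62.0% of the bulk read pairs of any of them. Totals were therefore fitted a second time over loops with both anchors shared, an alternative that leaves out genes without double positive read pairs by construction. There 9845 genes were tested, 20.1% were higher and 11.7% lower, and the median log2 fold change of all genes was 0.30. Of the 10 genes, Cubn and Apoe kept 28 and 62 bulk read pairs there, and each other gene at most 7. The others that were tested met the filter through their double positive read pairs.

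Cubn encodes cubilin, the receptor for intrinsic factor, albumin and apolipoprotein A-I. It lies on chromosome 2 from 13197965 to 13413551 on the minus strand. The double positive libraries held 56, 44, 32, 28 and 61 read pairs in its loops, and the bulk libraries between 3 and 55 with a median of 10. After scaling these were 204.4, 214.9, 251.6, 220.8 and 250.6 CPM, against 54.1 to 552.6 CPM with a median of 123.5 in bulk. All double positive libraries lay above 10 of the 12 bulk libraries. The fitted log2 fold change was 0.51 (SE 0.30, edgeR adjusted p = 0.132).

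Bulk replicate 7 stood apart at Cubn, with 55 of the 181 bulk read pairs spread over 49 loops, 43 of which had 1 pair. Its other loops within 1 Mb of the Cubn start site were also the densest among the bulk libraries, at 1069 read pairs per 1000000 against 466.6 to 827.6 in the other 11. Without this library Cubn was called higher, with a log2 fold change of 0.91 (SE 0.22, edgeR adjusted p = 0.00041). On shared anchors, with all 17 libraries, it was 1.75 (SE 0.30, edgeR adjusted p = 2.2e-07). That fit kept 28 of the 181 bulk read pairs and all 221 double positive ones. With loops of at least 20 kb span the Cubn value was -0.075 (edgeR adjusted p = 0.85). That setting leaves out the shortest loop described next, which held 89 of the 221 double positive read pairs.

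Only 6 of the 453 loops passed the filter for a test of their own, 5 at Cubn and 1 at Apoe. The 5 at Cubn were called higher in double positive libraries and none of the 6 lower. These 5 held 2 to 8 bulk and 21 to 89 double positive read pairs, so they met the filter of 20 read pairs through the group where they are high, and their number is no support for a direction. Without the filter the call held for 1 of the 5, the loop of 8506 bp, and the other 4 had edgeR adjusted p between 0.091 and 0.33. Over all 5369 loops tested 38.1% were higher and 22.4% lower, and the median log2 fold change was 0.78. All 6 had positive values in edgeR and in DESeq2, and both tools called the same number, 5 higher. Both tools used the same filtered read pairs, so this too is no support for a direction. The 5 Cubn loops shared their anchor at the start site, chromosome 2 from 13407943 to 13420273, which is 12330 bp wide. They held 200 of the 221 double positive read pairs of Cubn (90.5%) and 24 of the 181 in bulk (13.3%).

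The strongest Cubn loop reached an intergenic anchor 8506 bp from the start-site anchor, measured between middles. This partner lay on chromosome 2 from 13421201 to 13424027, upstream of the gene. The start-site anchor is 12330 bp wide and ends at 13420273, so the anchors are near neighbours. The gap between them is far shorter than the distance between middles. The double positive libraries held 18, 22, 9, 9 and 31 read pairs in this loop, and the bulk libraries between 0 and 2 with a median of 0. No bulk library reached a double positive library, in read pairs or in normalized CPM. The means were 68.3 ± 24.4 CPM (SD, n = 5) and 4.68 ± 7.02 CPM (SD, n = 12), with a log2 fold change of 3.54 (SE 0.52, edgeR adjusted p = 2.1e-10). The partner anchor took part in 105 double positive read pairs in all, 89 of them with the Cubn start site, and in 61 bulk read pairs, 5 of them with it.

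A second loop joined the Cubn start site to the promoter of Vim, the intermediate filament gene vimentin, 81542 bp upstream. It held 9, 8, 3, 2 and 6 double positive read pairs and 3 bulk read pairs in all, from 3 libraries. Its log2 fold change was 2.49 (SE 0.68, edgeR adjusted p = 0.00074). A loop to Trdmt1, which encodes an RNA methyltransferase and lies between Cubn and Vim, held 7, 6, 5, 7 and 6 read pairs. In bulk it held 8, at most 3 in a library, and its log2 fold change was 1.50 (SE 0.55, edgeR adjusted p = 0.013). Without bulk replicate 4 this last call was lost (edgeR adjusted p = 0.065).

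The other 2 Cubn loops ran into and past the gene. Within an intron, an anchor from 13292093 to 13295535, 120294 bp away, was joined to the start site by 8, 5, 8, 5 and 5 double positive and 6 bulk read pairs. The log2 fold change was 1.87 (SE 0.59, edgeR adjusted p = 0.0034). The promoter of Rsu1, the next gene downstream, was joined over 221089 bp by 8, 3, 3, 3 and 4 double positive read pairs and by 2 in bulk. Its log2 fold change was 2.53 (SE 0.71, edgeR adjusted p = 0.0011). In these and the previous 3 loops every double positive library held at least 2 read pairs, while 6 to 10 of the 12 bulk libraries held none.

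**Figure D2:**
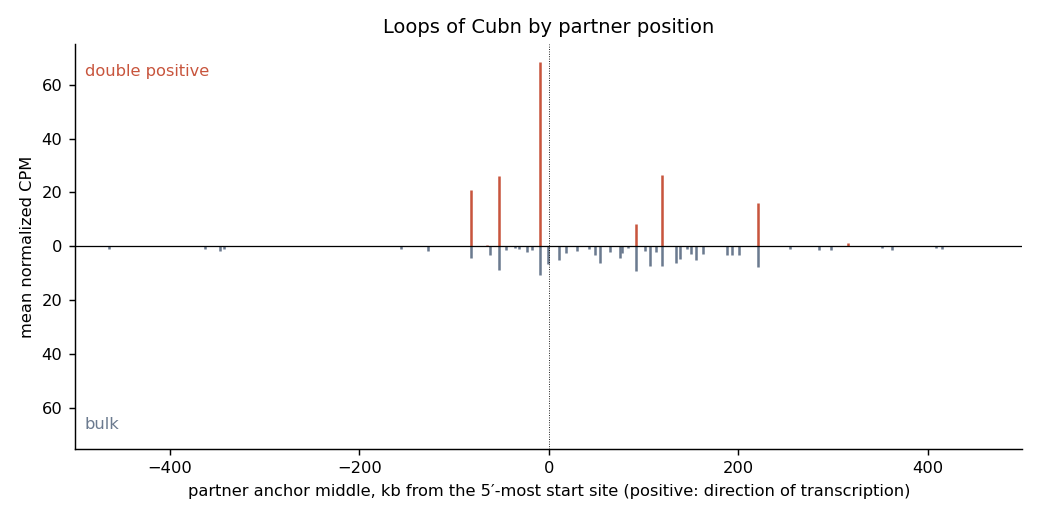
Mean normalized CPM of Cubn loops against the position of the partner anchor's middle, in kb from the 5′-most start site and positive in the direction of transcription. Double positive means point up and bulk means down, and loops to the same partner are summed. Double positive signal stands on few partners, the highest within 10 kb upstream, while bulk signal is spread over many partners at low values.

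Amn encodes amnionless, the membrane partner that cubilin needs. It lies on chromosome 12 from 112509322 to 112514637. Its loops held 11, 6, 3, 5 and 7 read pairs in double positive libraries and between 0 and 5 with a median of 2 in bulk. After scaling the groups overlapped, at 23.6 to 40.1 CPM against 0 to 49.6 CPM. The log2 fold change was 0.62 (SE 0.44, 95% interval -0.24 to 1.49, edgeR adjusted p = 0.217), and on shared anchors it was 0.90 (edgeR adjusted p = 0.23). The Amn loop with the most double positive read pairs joined it to the promoter of Traf3, a signalling adaptor gene, over 105584 bp. It held 2, 1, 1, 2 and 1 double positive read pairs and none in any of the 12 bulk libraries. With 7 read pairs it was below the filter and was not tested.

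Lrp2 encodes megalin, a giant receptor of the LDL receptor family, and lies on chromosome 2 from 69262397 to 69424122 on the minus strand. The bulk libraries held between 0 and 5 read pairs in its loops, 28 in all, at 25.9 ± 21.5 CPM (SD, n = 12), and 10 of the 12 libraries held at least 1. No double positive library held any. None of the 3 Lrp2 anchors was used by a double positive loop, so the edgeR call (adjusted p = 7.4e-05) compares read pairs with none listed and no fold is given. The files list no anchor without a read pair, and whether these anchors were called in the double positive cells was not tested.

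Dab2 encodes the clathrin adaptor disabled-2 and lies on chromosome 15 from 6249788 to 6390712. Its loops held 4, 2, 3, 3 and 7 double positive read pairs and between 1 and 10 in bulk. At 20.1 ± 7.69 CPM (SD, n = 5) against 60.9 ± 39.1 CPM (SD, n = 12) the groups overlapped, and the log2 fold change was -1.48 (SE 0.47, edgeR adjusted p = 0.0063). On shared anchors the sign turned, to 0.93 (SE 0.68, edgeR adjusted p = 0.30). Of the 60 bulk read pairs 4 lay on shared anchors, while all 19 double positive ones did. These started from 1 anchor, and 9 of the 19 reached the promoter of C9, a complement gene, over 57660 bp, where the bulk libraries held 1. Another 4 reached Rictor, a subunit of the mTORC2 kinase complex, over 321204 bp, against 2 in bulk. The annotation gives Dab2 a second identifier whose loops add 11 bulk and no double positive read pairs, which are left out of these totals.

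**Figure D3:**
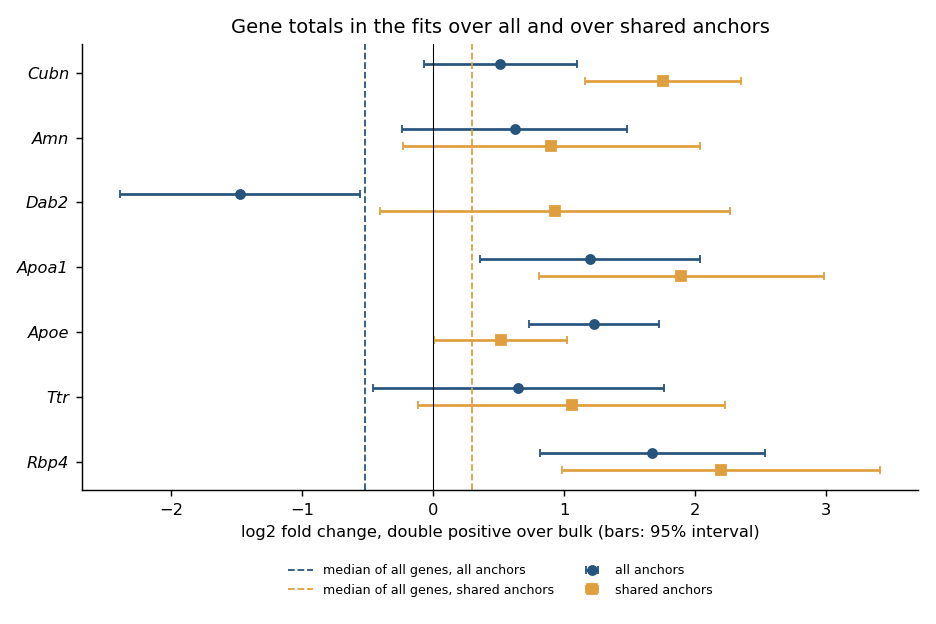
Log2 fold changes of gene totals, double positive over bulk, for the 7 tested genes with double positive read pairs. Circles are the fit over all anchors, squares that over shared anchors, bars 95% intervals, and dashed lines the medians of all genes in each fit. Cubn moves from 0.51 to 1.75, Apoe from 1.23 to 0.52 and Dab2 from -1.48 to 0.93 between the fits. The shared fit keeps every double positive read pair of these genes but at most 62% of the bulk read pairs of any of them.

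Apoa1 encodes the main protein of high density lipoprotein and lies on chromosome 9 from 46036663 to 46038549, in a cluster with Apoc3, Apoa4 and Apoa5. Its loops held 17, 11, 7, 3 and 19 double positive read pairs, against 0 to 6 with a median of 2 in bulk. These were 54.5 ± 19.8 CPM (SD, n = 5) and 24.8 ± 20.7 CPM (SD, n = 12), and the groups overlapped. The log2 fold change was 1.20 (SE 0.43, edgeR adjusted p = 0.015), and on shared anchors it was 1.90 (SE 0.55, edgeR adjusted p = 0.0039). The shared fit kept 6 bulk and all 57 double positive read pairs, so its filter was met through the group where Apoa1 is high. Over all anchors, without double positive replicate 5, the highest library, the value was 1.03 and the call was lost (edgeR adjusted p = 0.067). With loops of at least 20 kb span it was 0.92 and also not called (edgeR adjusted p = 0.092).

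The start-site anchor of Apoa1 also lay within 5 kb of a start site of Apoc3, an inhibitor of lipoprotein lipase, so their loops cannot be separated there. A bulk-only anchor was shared with Sik3, a kinase gene. The loop with the most read pairs ran 12846 bp to an anchor at Apoa4 and Apoc3. It held 4, 1, 4, 0 and 7 double positive read pairs and none in bulk. A second ran 44526 bp to Apoa5 and Zfp259, with 10 double positive and 2 bulk read pairs, and another 54436 bp to Bud13 and Zfp259, with 7 and 1. A further loop joined it to Apoc3 and Apoa4 over 7368 bp, with 6 and 1, and a loop to Sidt2 held 3 and 1. These partners other than Sidt2 lay on the side of the gene cluster.

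Apob encodes the structural protein of low density and very low density lipoprotein and lies on chromosome 12 from 7984454 to 8023641. Its loops held 34 bulk read pairs, between 0 and 10 in a library, at 31.1 ± 36.8 CPM (SD, n = 12), with 9 of 12 libraries above 0. No double positive library held any, and neither of its 2 anchors was used by a double positive loop (edgeR adjusted p = 0.00013). As at Lrp2 no fold is given. No Apob loop held more than 2 bulk read pairs.

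Apoe encodes the ligand by which remnant lipoproteins are taken up and lies on chromosome 7 from 20281458 to 20284515 on the minus strand. Its loops held 59, 43, 19, 32 and 53 double positive read pairs and between 3 and 18 with a median of 7 in bulk. After scaling these were 215.3, 210.0, 149.4, 252.3 and 217.8 CPM, against 43.9 to 204.9 CPM with a median of 71.7 in bulk. Of the double positive libraries 4 lay above every bulk library. The log2 fold change was 1.23 (SE 0.25, edgeR adjusted p = 7.4e-05). On shared anchors it was 0.52 (SE 0.26, edgeR adjusted p = 0.11) beside a median of all genes of 0.30, and the call was lost.

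The surroundings of Apoe also held more read pairs. Loops with both anchors within 1 Mb of its start site, without its own, held 7987 ± 548.3 read pairs per 1000000 (SD, n = 5) in double positive and 1343 ± 535.1 (SD, n = 12) in bulk libraries, 5.95 times as many on the scale of total read pairs. On the TMM scale of the Apoe totals the ratio was 1.74. The part of this in the Apoe result was not tested. All 3 Apoe anchors also lay within 5 kb of a start site of Apoc1, another apolipoprotein gene, so loops of Apoe and Apoc1 cannot be separated there. The start-site anchor also lay within 5 kb of a start site of Tomm40, a subunit of the mitochondrial import pore.

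The Apoe loop that could be tested joined its start site to Clptm1, a gene of a membrane protein, over 34698 bp. It held 10, 4, 4, 7 and 4 double positive read pairs and between 0 and 2 with a median of 1 in bulk. Its log2 fold change was 0.96 (SE 0.53, edgeR adjusted p = 0.10). It was called higher on shared anchors, at 1.30 (edgeR adjusted p = 0.020), and with spans of at least 20 kb, at 1.41 (edgeR adjusted p = 0.010), where the medians of all loops were 1.33 and 1.34. Other loops from the start-site anchor reached Tomm40 over 16130 bp, with 14 double positive and 2 bulk read pairs, and Pvrl2, a nectin gene, over 49312 bp, with 13 and 2. From the second Apoe anchor a loop to Clptm1 held 11 and 6, and the loop between the Apoe anchors, over 7594 bp, held 11 and 4. From the start-site anchor, loops to Relb, a subunit of NF-kappaB, and to an intergenic anchor near Apoc2 held 8 double positive read pairs each and none in bulk.

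Rbp4 encodes the retinol carrier of plasma and lies on chromosome 19 from 38191110 to 38199811 on the minus strand. Its loops held 14, 12, 8, 4 and 10 double positive read pairs, against 0 to 5 with a median of 1 in bulk. After scaling these were 51.1, 58.6, 62.9, 31.5 and 41.1 CPM, against 0 to 33.5 CPM in bulk. The groups overlapped by 1 library on each side. The log2 fold change of 1.68 (SE 0.44, edgeR adjusted p = 0.0012) rested on 17 bulk and 48 double positive read pairs, so the filter was met through the group where it is high. On shared anchors it was 2.20 (SE 0.62, edgeR adjusted p = 0.0026). That fit kept 4 bulk and all 48 double positive read pairs, so the same limit holds there and it is no separate support.

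The Rbp4 loop with the most read pairs ran 9431 bp upstream to the promoter of Pde6c, a phosphodiesterase gene of cone photoreceptors. It held 3, 8, 3, 1 and 2 double positive read pairs and 2 in bulk. A loop over 431274 bp reached an anchor at Cyp26a1 and Cyp26c1, which encode enzymes that degrade RA, with 5 double positive read pairs from 4 libraries and 1 in bulk. Loops to an intron of Myof, to an exon of Pde6c and to the gene 5730455O13Rik held 5 read pairs each in the sorted cells and none in bulk. None of these loops reached the filter for a test.

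Ttr encodes transthyretin, which carries thyroxine and the Rbp4 protein, and lies on chromosome 18 from 20823751 to 20832825. Its loops held 9, 8, 0, 3 and 11 double positive read pairs and between 0 and 6 in bulk. After scaling the groups overlapped, at 0 to 45.2 CPM against 0 to 73.1 CPM. The log2 fold change was 0.65 (SE 0.57, 95% interval -0.46 to 1.76, edgeR adjusted p = 0.323). The 31 double positive read pairs lay in 5 loops. Of these 13 joined the gene to B4galt6, a glycosyltransferase gene, over 79304 bp, where bulk held 3, and 10 to an intergenic anchor 23480 bp away, where bulk held 2. A further 5 reached Dsg2, a desmosomal cadherin gene, over 107545 bp, with none in bulk.

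Afp encodes alpha-fetoprotein, the albumin of the embryo, and lies on chromosome 5 from 90919740 to 90937933. Its loops held 2, 3, 0, 0 and 1 double positive read pairs and 8 in bulk, at most 3 in a library. This was below the filter of 20 read pairs, so Afp was not tested. The loop with the most read pairs joined it to Ankrd17, an ankyrin repeat gene, over 123801 bp, with 3 double positive read pairs and 2 in bulk.

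**Figure D4:**
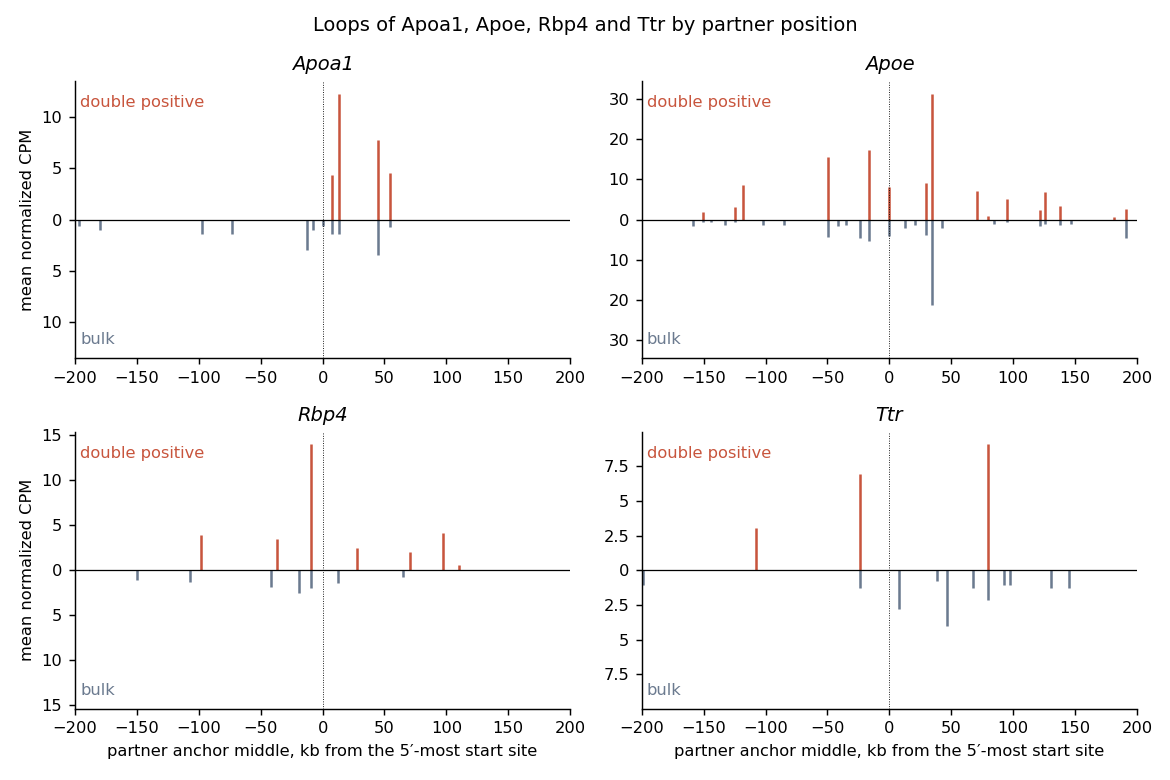
Mean normalized CPM of the loops of Apoa1, Apoe, Rbp4 and Ttr against the position of the partner anchor's middle, in kb from the 5′-most start site and positive in the direction of transcription. Double positive means point up and bulk means down, and loops to the same partner are summed. Apoa1 double positive signal lies on the side of Apoa4 and Apoa5, and that of Rbp4 is highest 9 kb upstream.

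No gene of the 10 had every double positive library above every bulk library, or every one below, in normalized CPM. Over all tested genes 7.22% lay wholly above and 14.9% wholly below. Lrp2 and Apob missed this because some bulk libraries were also at 0. Of all tested genes, 21.7% had no double positive read pair. All 3058 of these were called lower, out of 6040 lower calls. Lrp2 and Apob are in that class, so their lower calls followed from the count of 0 and say no more than it does.

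Set against their own surroundings, 8 of the 10 genes held a larger share of the read pairs in double positive libraries, near the 67.4% of 13880 genes that did so over the whole table. This measure, chosen after the values were seen and not tested, takes loops with both anchors within 1 Mb of a start site and needs no scaling between libraries. Cubn held 67.0% of them in double positive and 12.4% in bulk libraries. Ttr held 34.4% against 3.74%, Apoa1 14.9% against 1.07%, Rbp4 8.07% against 1.16%, Dab2 10.3% against 5.66% and Amn 2.55% against 0.77%. Apoe held 5.94% against 4.32% and Afp 7.46% against 1.82%. Lrp2 and Apob went from 2.03% and 1.76% in bulk to 0. Over shared anchors the bulk shares were higher, at 28.9% for Cubn, 5.66% for Apoa1 and 4.55% for Rbp4. For Ttr the bulk share was then 54.5%, for Dab2 13.6% and for Afp 13.3%, all above the double positive share, over 11, 22 and 15 bulk read pairs in all. So 5 of the 10 genes had a larger double positive share on shared anchors, beside 47.1% of 13841 genes.

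**Figure D5:**
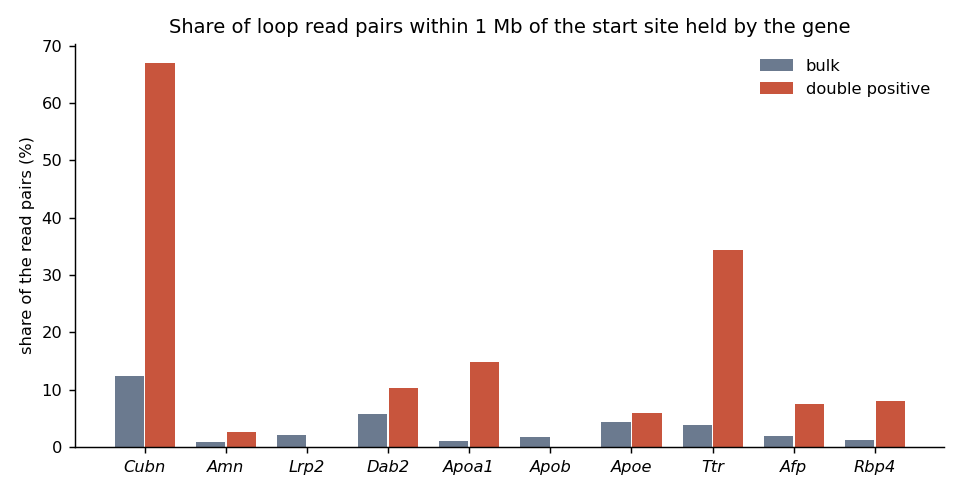
Share, in percent, of the loop read pairs with both anchors within 1 Mb of the start site that belonged to the gene's own loops, pooled over the libraries of each group (no error bars, as each bar is a pooled share). Cubn stands highest in both groups, at 67.0% (double positive) and 12.4% (bulk). Lrp2 and Apob have no double positive bar.

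Pooled over the 10 genes, loops were shorter in double positive than in bulk libraries, as loops were in general. Cubn held 221 of the 620 double positive read pairs, and its median span was 52156 bp against 120294 bp in bulk. The medians of Apoe, Ttr and Afp were the same in both groups, and that of Dab2 was longer in double positive libraries, at 321204 bp against 165116 bp. Weighted by read pairs, the median span was 57660 bp in double positive and 123801 bp in bulk libraries, against 79150 and 128954 bp over all loops. Of the double positive read pairs of the 10 genes 35.8% spanned over 100 kb, against 44.7% of all loops. In bulk these shares were 54.5% and 54.9%. A protein-coding start site lay within 5 kb of the partner anchor for 71.5% of read pairs in double positive libraries and for 37.5% in bulk. Over all loops with a start site the shares with a start site at both ends were 73.2% and 31.4%, so the 10 genes lay near the background. Of the 453 loops 122 held a double positive read pair, 377 a bulk read pair and 46 both.

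Among other endocytic receptor and adaptor genes 17 were tested, of which 5 were higher and 6 lower, with a median log2 fold change of 0.09 beside -0.52 over all genes. Against 20.6% higher and 42.8% lower over all genes, these counts, and those of the lists that follow, are descriptions of small lists. The higher ones with the smallest p were Ap2a1 and Ap2m1, subunits of the AP-2 clathrin adaptor, at 1.19 (SE 0.30) and 0.93 (SE 0.30), and Fcgrt, the neonatal Fc receptor gene, at 1.20 (SE 0.37), with edgeR adjusted p of 0.00074, 0.0082 and 0.0045. The lower ones were Scarb1, a lipoprotein receptor gene, Dab1, a relative of Dab2, and Myo6, an endocytic myosin gene, which had no double positive read pair against 114, 77 and 80 in bulk. On shared anchors 13 were tested, of which 5 were higher and 1 lower, beside 20.1% and 11.7% of all genes there. Ap2m1 (0.36, edgeR adjusted p = 0.29) and Fcgrt (0.76, edgeR adjusted p = 0.12) then lost their calls, and Ap2a1 was at 0.57 (edgeR adjusted p = 0.033).

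Of 17 apolipoprotein and lipoprotein assembly genes tested, 8 were higher and 4 lower, with a median log2 fold change of 0.75. Apom, at 1.21 (SE 0.21, edgeR adjusted p = 8e-06), Soat2, a cholesterol esterifying enzyme gene, at 1.59 (SE 0.30, edgeR adjusted p = 3.2e-05), and Apoc3, at 1.56 (SE 0.31, edgeR adjusted p = 5.4e-05), rose with the smallest p. On shared anchors the Apom value was 0.09 (edgeR adjusted p = 0.77) and the call was lost. Apoc3 shares an anchor with Apoa1 and repeats its read pairs in part. Apoc1, also called higher, shares every Apoe anchor and holds the same 206 double positive read pairs, so it is no separate result. Apoh and Apoc4 had no double positive read pair, against 45 and 37 in bulk. Apoa2 fell by 1.55 on the log2 scale (SE 0.26, edgeR adjusted p = 4.6e-06). On shared anchors Apoa2 was at -1.33 (edgeR adjusted p = 0.00036). It lies on chromosome 1 beyond 130 Mb, where all bulk loops together held 3.86 ± 0.76 times (SD, n = 12) as many read pairs per anchor as on the rest of the autosomes. For double positive loops this ratio was 0.73 ± 0.026 (SD, n = 5). The part of the region in the Apoa2 value was not tested. On shared anchors 14 were tested, of which 5 were higher and 1 lower, beside 20.1% and 11.7% of all genes there.

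Of 16 secreted plasma protein and carrier genes 12 had no double positive read pair, and 9 of these 12 had bulk read pairs. Over all tested genes 21.7% had none, but most of the 12 were too sparse to be tested. No share over all annotated genes is given, so the count is a description only. Of 7 tested 2 were higher and 5 lower, with a median log2 fold change of -4.27. Stra6, the receptor that takes up retinol from the Rbp4 protein, rose by 1.99 (SE 0.17, edgeR adjusted p = 7e-12), from 197.4 to 787.2 CPM. Ambp, the gene of a plasma protease inhibitor, rose by 1.45 (SE 0.38, edgeR adjusted p = 0.0012). Rbp2, the gene of a cellular retinol binding protein, fell by 2.83 (SE 0.56, edgeR adjusted p = 5e-05). Trf, the transferrin gene, had no double positive read pair and 34 in bulk. On shared anchors both tested genes were higher, beside 20.1% of all genes there.

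Regulators of visceral endoderm were tested for 9 of 14 annotated genes, with 4 higher and 2 lower and a median log2 fold change of 0.41. Gata4 rose by 1.73 (SE 0.24, edgeR adjusted p = 2.1e-07), Foxa2 by 1.51 (SE 0.26, edgeR adjusted p = 5.5e-06) and Ihh, the signal of the visceral endoderm, by 1.42 (SE 0.34, edgeR adjusted p = 0.00048). Hnf4a, which encodes a liver-type nuclear receptor, had no double positive read pair, against 262 in bulk. Hnf4a lies on chromosome 2 beyond 150 Mb, where bulk loops held 3.92 ± 0.81 times (SD, n = 12) as many read pairs per anchor as on the rest of the autosomes. For double positive loops this ratio was 0.93 ± 0.025 (SD, n = 5). The part of the region in the Hnf4a counts was not tested. On shared anchors 5 of 7 were higher and none lower, beside 20.1% and 11.7% of all genes there. All 7 values there were positive, so none was lower at an unadjusted p under 0.05 in edgeR either.

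Markers of the cells in these samples were read from the same loops. Of the visceral endoderm markers outside the 10 genes 2 of 3 tested were higher, of the parietal endoderm markers 5 of 8, and of those of both extraembryonic kinds 2 of 5, beside 20.6% over all genes. The higher visceral markers, Ihh and Soat2, and those of both kinds, Gata4 and Foxa2, were named above, so they are no separate results. The lower gene in each of the 3 lists, Hnf4a, Snai1 and Pdgfra, had no double positive read pair, against 262, 123 and 38 in bulk. Snai1 lies on the same distal part of chromosome 2 as Hnf4a. On shared anchors 2 of 2, 6 of 7 and 3 of 4 were higher and none lower, with positive values at all that were tested. Over all genes on shared anchors 20.1% were higher and 11.7% lower, with a median log2 fold change of 0.30. Genes without double positive read pairs are left out there by construction. Sparc, Col4a1 and Thbd, parietal genes, rose by 1.61, 1.99 and 1.73 (edgeR adjusted p = 1.9e-07, 2.4e-07 and 0.00052). Thbd held 18 bulk and 53 double positive read pairs, so it met the filter through the group where it is high. The summed level of the parietal list was 894.1 to 1096 CPM in double positive libraries, against 348.3 to 842.9 CPM in bulk. That of the visceral list overlapped between the groups, at 204.4 to 283.3 CPM and 170.5 to 524.7 CPM. Of the 4 visceral markers in the annotation, Hnf4a and Cited1 were at 0 in double positive loops. Neural markers were lower for 4 of 6 tested, beside 42.8% over all genes, and for 4 of 6 on shared anchors, beside 11.7%. Pax6 had the smallest p and fell by 3.17 (SE 0.29, edgeR adjusted p = 4.8e-11). The summed level of the neural list was 94.4 to 168.5 CPM in double positive libraries, against 594.6 to 1216 CPM in bulk. All 5 hepatocyte markers and both kidney tubule markers outside the 10 genes had no double positive read pair, but 1 of each list had none in bulk either and 1 of each could be tested. The sorting markers Epcam and Cd38 had log2 fold changes of 1.05 (edgeR adjusted p = 0.11) and 0.65 (edgeR adjusted p = 0.19), and on shared anchors of 0.23 (edgeR adjusted p = 0.79) and 1.74 (edgeR adjusted p = 0.0097). Of the definitive endoderm markers 0 of 2 tested were higher and 1 lower, and of the pluripotent cell markers 1 of 2 higher and 1 lower. The part of these cell types in the results on the 10 genes was not tested.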

How the data were processed

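H3K27ac HiChIP counts of 12 bulk and 5 double positive (cluster2) libraries were used, grouped by GEO's labels. As deposited, the values are raw counts of read pairs per loop. The authors had mapped the reads (HiC-Pro, mm9) and taken peaks and loops from hichipper. Alignment and peak calling are fixed in these counts, and loops without a read pair are not listed.

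Overlapping anchors were joined into 216081, and 700 read pairs inside 1 joined anchor were dropped. Start sites of protein-coding genes came from the mm9 GENCODE vM1 annotation. Anchor coordinates are printed as the files give them. Genes and loops had to hold at least 20 read pairs and to be seen in at least 5 libraries. They were tested with edgeR 4.0.16 in R 4.3.3 (TMM on the total read pairs in loops, quasi-likelihood test, Benjamini-Hochberg over all genes or loops). Tables were made with Python 3.11.15, pandas 2.3.3 and numpy 2.4.6. No libraries were duplicates: the counts of each pair within a group differed by more than sampling noise.

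The genes and lists were chosen with earlier results of these data known. All 10 genes are named, with up to 5 loops each by read pairs and every loop past the threshold. Of each list up to 3 genes per direction with the smallest p are named. Some genes that this rule would name are not reported here. Promoters are those of the genes with most double positive read pairs. Where RefSeq gives several, the 5′-most was taken, except for Rbp4, where the one with a TATA box was chosen after the match was seen. Alternatives were DESeq2 1.42.0, library size alone, TMMwsp, at least 50 read pairs, no filter, shared anchors, libraries thinned to 50508 read pairs, spans of at least 20 kb, a replicate block, other start-site windows (2500 bp, or overlap), anchors of 1 gene only, bins of 25 kb, and each replicate left out.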

Additional observations from a re-analysis of the deposited data

How the results depend on the processing

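With library size alone 6 of the genes were higher in place of 3, beside 7800 of all 14115 genes. The log2 fold change of Dab2 turned to 0.27, and that scaling moved the median of all genes from -0.52 to 1.21. With shared anchors none was lower in place of 3 (Dab2 0.93, with Lrp2 and Apob left out by construction). After thinning, or under a minimum of 50 read pairs, 1 was lower, since Lrp2 and Apob were no longer tested. With spans of at least 20 kb Cubn turned to -0.075. Higher loops numbered 1 with at least 50 read pairs, when 1 was tested. Leaving out each replicate gave 2 to 4 higher and 3 to 3 lower genes, and 4 to 5 higher and 0 to 0 lower loops.

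Same-numbered libraries did not deviate together (correlations -0.014 to 0.010), so no pairing by number was seen. With counts this sparse the check cannot exclude a pairing. With the replicate block over replicates 1 to 5, 3 loops were higher in place of 5, and Cubn was called, at 0.86 (edgeR adjusted p = 0.004). The same 10 libraries without the block, a setting added after the data were seen, also called Cubn, at 0.85 (edgeR adjusted p = 0.0024). Cubn was also called with start-site windows of 2500 bp (0.79) and overlap (1.18), with its own anchors (0.80) and after thinning (1.08). The Dab2 call was lost with overlapping anchors (-0.61). Apoa1 and Apoe have no anchor of their own and Afp was fitted only without a filter. Without a filter 5 loops were higher, but not the same 5. Of the Cubn loops only the 8506 bp loop was among them, beside Amn to Traf3, Apoa1 to Apoa4, and Apoe to Relb and near Apoc2. Those beside the Cubn loop held no bulk read pair. Over all 1211657 loops 2763 were higher and 44 lower in that fit, so the number is no support for a direction. Counts of 1 or 2 read pairs limit most single loops.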
